A study of Arabidopsis thaliana with 6 samples.

Results

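Cyclins of the A, B and D classes, the cyclin-dependent kinases (CDKs) they bind and the proteins that activate, dock or inhibit those kinases were followed in leaves of Arabidopsis thaliana. The set was chosen by locus as 41 genes: 10 A-type, 9 B-type and 10 D-type cyclin genes, the single A-type kinase CDKA;1 (called CDKA from here on), 4 CDKB genes, and 7 genes for CDKD and CDKF kinases, CKS1, CKS2 and WEE1. Of these, 39 were among the 21981 genes of the deposited table, and 31 averaged 1 FPKM or more across the 6 samples, the level needed for testing. CYCA2;4 and CDKF;1 had no row and were not analysed here. Leaf mRNA came from Col-0 plants aged 4 weeks. There were 3 wild-type samples and 3 samples titled transgenic lines 1, 2 and 3, each line being 1 sample. The labels name neither the transgene nor its promoter, and do not say whether the lines arose from separate transformation events. Drought treatment is mentioned in the same words for both groups, so the labels show no difference in watering. Nothing in the labels says that the samples came from separately grown plants. The p-values below therefore rest on the spread among these 6 samples, part of which could be technical. Each gene's variance was also drawn toward that of other genes of similar level.

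Cyclins are regulatory subunits that switch on CDKs and give them their targets. In plants, D-type cyclins with CDKA act at the entry into the cycle, CYCA3 cyclins around DNA replication, and CYCA1, CYCA2 and B-type cyclins with CDKA and the plant-specific CDKB kinases at the passage through G2 into mitosis. When mitotic cyclin-CDK activity stays low while DNA replication goes on, cells enter the endocycle and raise their ploidy, which is the usual course in expanding Arabidopsis leaf cells and in trichomes. Many genes of the G2-to-mitosis group carry the mitosis-specific activator (MSA) element, whose core is bound by MYB3R transcription factors, and E2F factors bind sites in many S-phase genes. No ploidy or cell count was among the data.

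The deposited FPKM (fragments per kilobase of transcript, scaled to the fragments of the library) summed to 970376 to 982620 in the wild-type samples and to 1261802 to 1278449 in the transgenic lines. The groups are therefore not on the same total, and directions were also read under other scalings. The leaf markers RBCS1A, LHCB1.3, RCA and CA1 summed to 52400 to 57990 FPKM in wild type and 81620 to 83830 FPKM in the lines. They were thus high in every sample, which does not exclude other tissue beside leaf. Markers listed for the meristem and the stomatal lineage were also present. STM alone was at 26.2 to 28.8 FPKM in wild type and at 9.52 to 10.2 FPKM in the lines. The meristem list of 4 genes (STM, KNAT1, WUS, CLV3) summed to 36.6 to 38.5 FPKM in wild type and 13.4 to 16.1 FPKM in the lines, with WUS at 0 in every sample and CLV3 at 0 in 5 of 6. The stomatal lineage list of 6 genes summed to 20.8 to 21.9 FPKM in wild type and 11.9 to 13.1 FPKM in the lines. In the test described below, 3 of its 4 tested genes were called lower, where 15.7% of all tested genes were. Of these, TMM and EPF2 lost the call under some other settings. FAMA, the most abundant of the list, was not called, at 6.67 to 8.14 FPKM in wild type and 5.33 to 7.83 FPKM in the lines. Both sums were lower in the lines, as were many of the mitotic cyclins and kinases described below, and their part in those results was not tested. Fewer dividing cells, less RNA per dividing cell and an unequal share of meristem tissue in the samples cannot be told apart here.

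The stretches around the gene starts are shown for 5 of the 8 members with at least 3 matches to the MSA core. They are both CYCA1 genes, which moved in opposite directions, a B1 and a B2 cyclin that fell, and CYCB1;1, which varied most between samples. None of the 24 members with 0 matches is shown, some of which were also called lower. Each runs 5′ to 3′ along the gene, from 250 bases before to 50 bases after the RefSeq gene start on TAIR10.1, and capitals mark the MSA core (AACGG, or CCGTT where it lies on the other strand). In the order shown they lie at chr1:16777303-16777602, chr1:29084236-29084535, chr4:17624259-17624558, chr5:1861654-1861953 and chr1:7137779-7138078, all on the minus strand.
CYCA1;1: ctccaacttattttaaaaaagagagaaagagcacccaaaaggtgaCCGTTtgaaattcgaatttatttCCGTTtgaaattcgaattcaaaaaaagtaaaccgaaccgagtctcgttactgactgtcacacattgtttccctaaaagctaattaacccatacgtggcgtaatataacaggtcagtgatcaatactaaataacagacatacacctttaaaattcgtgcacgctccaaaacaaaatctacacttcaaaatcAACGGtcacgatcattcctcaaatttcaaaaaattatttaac
CYCA1;2: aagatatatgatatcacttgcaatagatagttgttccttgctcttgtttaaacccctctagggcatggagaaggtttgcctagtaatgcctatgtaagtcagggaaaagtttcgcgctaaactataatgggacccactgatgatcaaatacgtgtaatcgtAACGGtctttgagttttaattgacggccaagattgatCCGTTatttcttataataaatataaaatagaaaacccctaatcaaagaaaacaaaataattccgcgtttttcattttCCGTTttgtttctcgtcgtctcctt
CYCB1;1: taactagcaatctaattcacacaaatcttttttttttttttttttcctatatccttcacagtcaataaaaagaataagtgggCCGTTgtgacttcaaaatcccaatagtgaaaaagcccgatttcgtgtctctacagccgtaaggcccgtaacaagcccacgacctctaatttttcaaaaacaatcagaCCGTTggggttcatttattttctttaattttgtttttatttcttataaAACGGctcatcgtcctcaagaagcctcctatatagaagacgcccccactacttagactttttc
CYCB1;2: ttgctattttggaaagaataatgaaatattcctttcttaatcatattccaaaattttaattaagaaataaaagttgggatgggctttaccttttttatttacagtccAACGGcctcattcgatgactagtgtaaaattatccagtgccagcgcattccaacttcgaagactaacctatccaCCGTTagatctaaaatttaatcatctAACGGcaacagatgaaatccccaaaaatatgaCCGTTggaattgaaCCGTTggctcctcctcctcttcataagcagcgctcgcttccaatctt
CYCB2;3: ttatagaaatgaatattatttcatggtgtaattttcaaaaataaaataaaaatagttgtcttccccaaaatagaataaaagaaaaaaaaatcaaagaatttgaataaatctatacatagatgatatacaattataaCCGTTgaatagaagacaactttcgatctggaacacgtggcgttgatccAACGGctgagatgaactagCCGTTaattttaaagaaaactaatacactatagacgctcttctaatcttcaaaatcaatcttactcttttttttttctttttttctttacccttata

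The MSA core was found on either strand in this window of 8 of the 9 B-type cyclin genes, 4 of the 10 A-type genes and 1 of the 10 D-type genes. Over all 27443 protein-coding genes, 24.7% held at least 1 match. At least 2 matches were present in 7 of 9 B-type and 4 of 10 A-type cyclins and in 0 of 10 D-type cyclins, against 4.89% of 27443 protein-coding genes. At least 3 matches were present in 8 of the 41 members (19.5%), against 1.06% of all genes. Among B-type genes the number ran from 0, in CYCB2;4, to 5, in CYCB1;2. Of the 4 CDKB genes, 1 held a match, CDKB2;2, a share close to that of all genes. Of E2F-type sequences, only TTTCCCGC and TTTGGCGC were searched for, also on both strands, and other forms were not. An E2F match was found in 1 member, CYCD3;3, which holds no MSA core, so the motifs did not overlap there (1.21% of all genes hold such a match). Such matches describe these letters in this window and are not evidence of binding.

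Some of this machinery was lower in the transgenic lines, while 16 of the 31 tested members did not pass the test in either direction. With limma on log2(FPKM + 1) and Benjamini-Hochberg adjustment over 17093 genes, 13 of the 31 tested members were called lower at an adjusted p under 0.05, where 15.7% of all tested genes were. Another 2 were higher, where 25% of all tested genes were, and 16 were not called (calls in either direction took in 40.7% of all genes). The median log2 fold change, transgenic over wild type, was -0.41 over the tested members and 0.0265 over all tested genes. By class, 3 of 7 A-type cyclins fell and 1 rose, 4 of 7 B-type cyclins fell, and 3 of 8 D-type cyclins fell and 1 rose. Of the 5 CDKA and CDKB genes 2 fell, and of the 4 tested CDKD and CKS genes 1 fell. Grouped by the phase in which they act, 7 of 15 G2-to-mitosis genes fell and 1 rose, with a median log2 fold change of -0.44. Of the S-phase CYCA3 cyclins 2 of 3 fell, with a median of -0.58, and the median of the D-type cyclins was -0.20. All 3 lines lay below all 3 wild-type samples in 16 of the 31 members and above them in 3, where 22% and 30.2% of all tested genes did so. The members and classes were chosen with results of these data known, so these counts are descriptions.

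**Figure D1:**
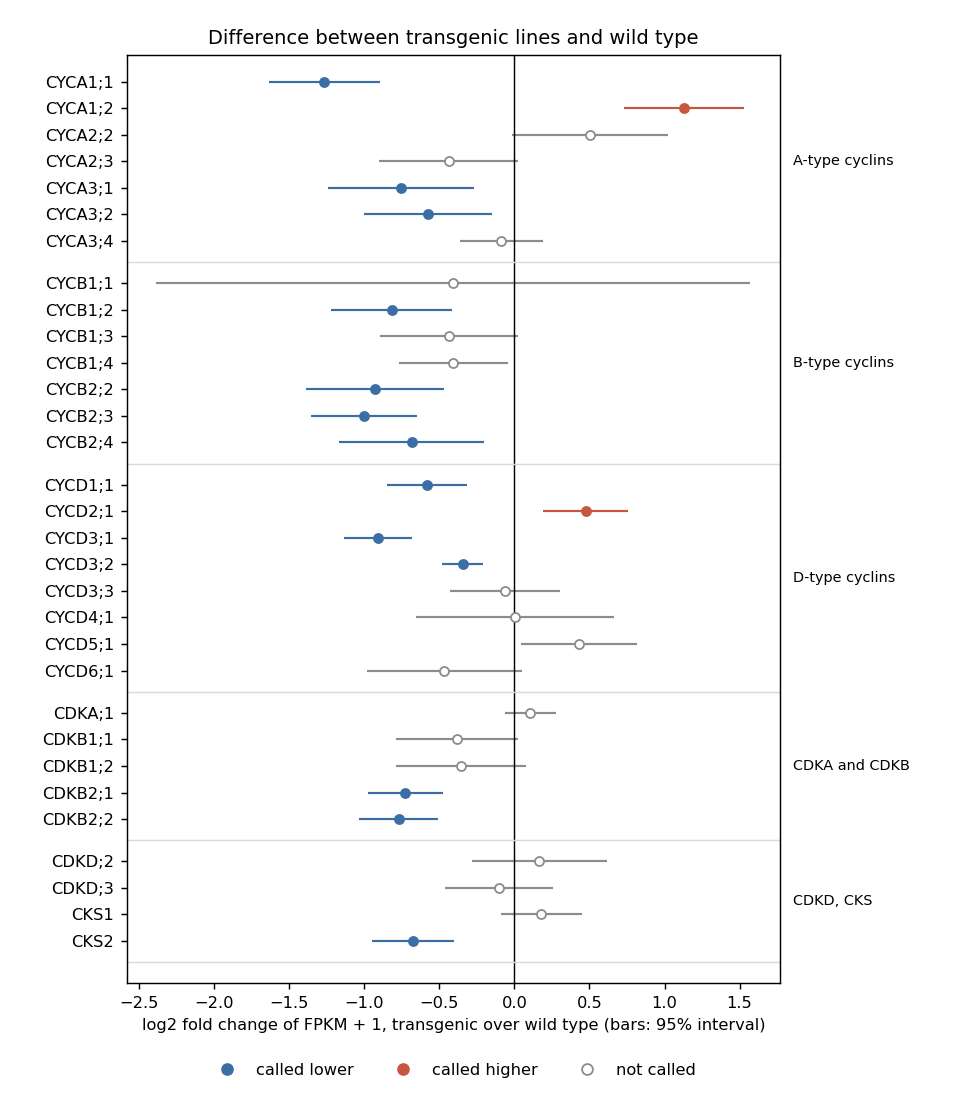
Log2 fold change of FPKM + 1, transgenic lines over wild type, of the 31 tested members, with 95% intervals from limma. Filled points passed an adjusted p of 0.05, 13 lower (blue) and 2 higher (red), open points did not, and CYCB1;1 has the widest interval, from -2.38 to 1.57.

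Both A1 cyclins were called, in opposite directions. CYCA1;1, a cyclin of the passage into mitosis, was at 3.66, 3.39 and 3.50 FPKM in wild-type replicates 1 to 3 and at 0.830, 1.02 and 0.789 FPKM in lines 1 to 3. Its log2 fold change was -1.27 (SE 0.163, adjusted p = 0.000241 with limma), the largest fall among the members. CYCA1;2, also called TAM and known for its role in meiosis, was at 1.498, 2.14 and 1.64 FPKM in wild type against 5.65, 4.00 and 5.53 FPKM in the lines. TAM rose by 1.13 on the log2 scale (SE 0.176, adjusted p = 0.000781). The groups did not overlap for either gene. Within a sample, the ratio of the first to the second went from 2.05 ± 0.433 to 0.182 ± 0.0638 (SD, n = 3). A factor common to a sample has no bearing on this ratio, which is a description formed with both calls known. As shown above, both genes hold 3 MSA cores around the start. They are AT1G44110, on chromosome 1 at 16774765 to 16777352, and AT1G77390, on the same chromosome at 29081654 to 29084285.

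The A2 cyclins were not called. CYCA2;3, known to restrain endoreplication together with a CDKB1 kinase, was at 6.95, 7.70 and 6.87 FPKM in wild type against 3.25, 6.32 and 6.02 FPKM in the lines. All lines lay below wild type, but line 1 was far below the other lines, and the log2 fold change of -0.44 had a 95% interval from -0.90 to 0.022 (adjusted p = 0.118). CYCA2;2 ran from 3.02 to 5.91 FPKM in wild type and from 5.701 to 8.82 FPKM in the lines (log2 fold change 0.50, 95% interval -0.013 to 1.0198, adjusted p = 0.111). CYCA2;1 stayed below the level for testing, at 0.777, 1.16 and 0.781 FPKM in wild type against 0.319, 0.507 and 0.205 FPKM in the lines, with all lines below wild type.

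Of the S-phase A3 cyclins, 3 stand in a row on chromosome 1 with no gene between them, yet their levels differed. The first, CYCA3;2 (17300691 to 17302914), was at 11.7, 10.7 and 9.77 FPKM in wild type against 6.88, 9.31 and 4.94 FPKM in the lines. The next, CYCA3;3 (17303676 to 17305197), was listed at 0 in every sample. The last, CYCA3;4 (17306574 to 17308848), ran from 5.45 to 6.35 FPKM in wild type and from 5.01 to 5.82 FPKM in the lines. The first of the row fell by 0.58 on the log2 scale (SE 0.187, adjusted p = 0.0352), while the last had a log2 fold change of -0.086 (95% interval -0.36 to 0.19) and overlapping groups. CYCA3;1, on chromosome 5, was at 2.65, 1.457 and 2.33 FPKM in wild type against 1.017, 0.707 and 0.807 FPKM in the lines, with a log2 fold change of -0.75 (SE 0.214, adjusted p = 0.0196). Both calls were weak. The first of the row lost its call when any 1 of 5 samples was left out (adjusted p up to 0.110) and kept it without line 2, and it also lost its call with no filter (0.113) and with no variance trend (0.0613). The gene on chromosome 5 lost its call after quantile normalization (adjusted p = 0.0522), and also when wild-type replicate 1 (0.0807), wild-type replicate 3 (0.0737) or line 2 (0.0502) was left out. The number of A-type cyclins called lower thus went from 3 to 1 without wild-type replicate 1 or 3.

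Among B-type cyclins, which drive mitosis, all 7 tested members had a negative log2 fold change, 4 of them were called, and the median was -0.68. Of the B2 cyclins 3 of 3 tested were called lower as deposited, and 2 of 3 after quantile normalization or cyclic loess. Of all tested genes, 15.7% were lower as deposited, 20.2% after quantile normalization and 19.8% after cyclic loess. CYCB2;3 was at 5.21, 5.21 and 4.58 FPKM in wild type against 1.58, 2.23 and 2.22 FPKM in the lines, a fall of 1.00 on the log2 scale (SE 0.156, adjusted p = 0.000777). CYCB2;2 was at 4.69, 2.99 and 2.94 FPKM in wild type against 1.126, 1.27 and 1.697 FPKM in the lines (log2 fold change -0.93, SE 0.202, adjusted p = 0.00545). In both genes every line lay well below every wild-type sample. CYCB2;4 was at 5.47, 5.38 and 3.92 FPKM in wild type against 3.89, 1.95 and 2.39 FPKM in the lines, so that line 1 nearly reached wild-type replicate 3. Its log2 fold change of -0.68 (SE 0.213, adjusted p = 0.0294) lost the call after quantile normalization (adjusted p = 0.0773), after cyclic loess (0.0808), with no filter (0.0857), and when wild-type replicate 1 or 2, line 2 or line 3 was left out. Its adjusted p ran from 0.00344 to 0.0970 over the alternatives. CYCB2;1, below the level for testing, was at 0.822, 1.12 and 1.41 FPKM in wild type against 0.324, 0.315 and 0.480 FPKM in the lines.

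CYCB1;2 was the one B1 cyclin called. It was at 6.42, 7.04 and 6.51 FPKM in wild type against 2.65, 4.68 and 2.95 FPKM in the lines, with no overlap (log2 fold change -0.82, SE 0.178, adjusted p = 0.00535). Of its exonic windows of 50 bases, 11.3% also occur in the gene AT1G34460, another B1 cyclin, and of those of CYCB2;3 16.99% occur in AT1G20590. Neither of these 2 further genes had a row in the table, and the sources used here do not give how reads that match 2 genes were counted. The other 39 members had no exonic window of this length that recurs in the genome. CYCB1;3 ran from 1.71 to 2.51 FPKM in wild type and from 1.09 to 1.83 FPKM in the lines (log2 fold change -0.44, adjusted p = 0.119), with overlap. For CYCB1;4 the ranges were 3.03 to 3.58 FPKM and 1.84 to 2.53 FPKM (log2 fold change -0.41, 95% interval -0.77 to -0.045, adjusted p = 0.0721), without overlap. CYCB3;1, below the level for testing, was at 0.789 to 1.10 FPKM in wild type and 0.380 to 0.707 FPKM in the lines, again without overlap.

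CYCB1;1, the cyclin most used as a marker of cells in G2 and mitosis and also known to be induced by DNA damage, varied unlike its relatives. It was at 49.4, 29.1 and 4.99 FPKM in wild-type replicates 1 to 3 and at 20.24, 3.71 and 38.1 FPKM in lines 1 to 3. Each group thus held 1 sample near 4 to 5 FPKM and 1 above 38 FPKM, and the groups overlapped throughout. Its within-group SD of log2(FPKM + 1) was 1.59, against 0.0608 to 0.420 for the other 30 tested members and a median of 0.132 over all tested genes. A larger SD was found in 36 of the 17093 tested genes, and in 6 of the 5833 genes whose mean lay within 2-fold of its own. No difference between the groups could be read from it (log2 fold change -0.41, SE 0.8725, adjusted p = 0.744), and its sign turned without wild-type replicate 1 (0.23) or without line 2 (0.47). CYCB1;2 did not show these swings. Wild-type replicate 3, the lowest of its group for the marker cyclin, was at 6.51 FPKM for this relative, between the other 2 replicates, and line 2, the lowest sample of all for the marker cyclin, was the highest line. The marker cyclin gene (AT4G37490, chromosome 4 at 17621886 to 17624308) overlaps no other annotated gene.

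D-type cyclins, which link growth signals to entry into the cycle, were split. CYCD3;1, the cytokinin- and sugar-responsive member of the CYCD3 group that prolongs division and delays endocycling in leaves, was at 21.4, 20.5 and 19.1 FPKM in wild type against 11.6, 9.34 and 10.3 FPKM in the lines. That is a fall of 0.91 on the log2 scale (SE 0.101, adjusted p = 9.22e-05), the smallest adjusted p among the members. Its relative CYCD3;2 was the most abundant D-type cyclin, at 77.3, 76.2 and 71.2 FPKM in wild type against 61.3, 58.6 and 56.4 FPKM in the lines (log2 fold change -0.35, SE 0.0606, adjusted p = 0.00159). In both, every line lay below every wild-type sample. The third of the group, CYCD3;3, ran from 10.3 to 13.9 FPKM in wild type and from 8.86 to 13.6 FPKM in the lines, and was not called (log2 fold change -0.063, 95% interval -0.43 to 0.30). The annotated gene of the first overlaps AT4G34150 on the same strand, which went the other way, with 677 to 682 FPKM in wild type against 1868 to 1950 FPKM in the lines.

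Of the other D-type cyclins, CYCD1;1 was at 14.6, 18.6 and 13.9 FPKM in wild type against 10.02, 9.77 and 10.4 FPKM in the lines, without overlap (log2 fold change -0.58, SE 0.118, adjusted p = 0.00366). CYCD2;1, known as sugar-inducible, was at 8.69, 7.02 and 7.37 FPKM in wild type against 12.5, 10.9 and 9.86 FPKM in the lines. It rose by 0.47 on the log2 scale (SE 0.124, adjusted p = 0.0137), and every line lay above every wild-type sample. The ratio of CYCD3;1 to it within a sample went from 2.66 ± 0.236 to 0.943 ± 0.0972 (SD, n = 3). This ratio is a description, since it was formed with both calls known. The call of CYCD2;1 ended without wild-type replicate 2 (limma adjusted p = 0.0536) or 3 (0.0502) and after rescaling to TPM (0.372).

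CYCD5;1, a gene linked to natural variation in endoreplication, was at 3.88, 3.05 and 4.30 FPKM in wild type against 6.45, 5.46 and 4.32 FPKM in the lines. Line 3 stood just above the highest wild-type sample, and the gene missed the threshold (log2 fold change 0.43, 95% interval 0.042 to 0.82, adjusted p = 0.0753). It passed as higher without line 3 (adjusted p = 0.0351), after quantile normalization (0.0282) and after cyclic loess (0.0300). After TPM its log2 fold change was 0.12 (adjusted p = 0.555). CYCD6;1, known for formative divisions in the root, ran from 1.495 to 2.85 FPKM in wild type and from 0.930 to 1.78 FPKM in the lines (log2 fold change -0.47, adjusted p = 0.139). CYCD4;1 had no difference that could be read, with 0.660 to 1.67 FPKM in wild type against 0.844 to 2.25 FPKM in the lines and a 95% interval of -0.65 to 0.66 on the log2 scale. CYCD4;2 was at 0.355 to 0.917 FPKM over the 6 samples. CYCD7;1, known from guard mother cells, was listed at 0 in 5 samples and at 0.459 FPKM in line 1.

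CYCD3;2 made up 54.2% ± 0.348 of the summed D-type FPKM in wild type and 53.3% ± 1.697 in the lines (SD, n = 3), with overlapping groups. The summed D-type level ran from 130.7 to 143.5 FPKM in wild type and from 102.4 to 118.7 FPKM in the lines, without overlap. The summed A-type level ran from 35.96 to 38.0 FPKM in wild type and from 29.8 to 35.7 FPKM in the lines, with line 2 close to the wild-type range. The summed B-type level ran from 29.9 to 78.6 FPKM in wild type and from 18.2 to 52.0 FPKM in the lines. In both groups the order of the samples for this last sum was that of CYCB1;1, its most abundant member in 4 of the 6 samples.

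**Figure D2:**
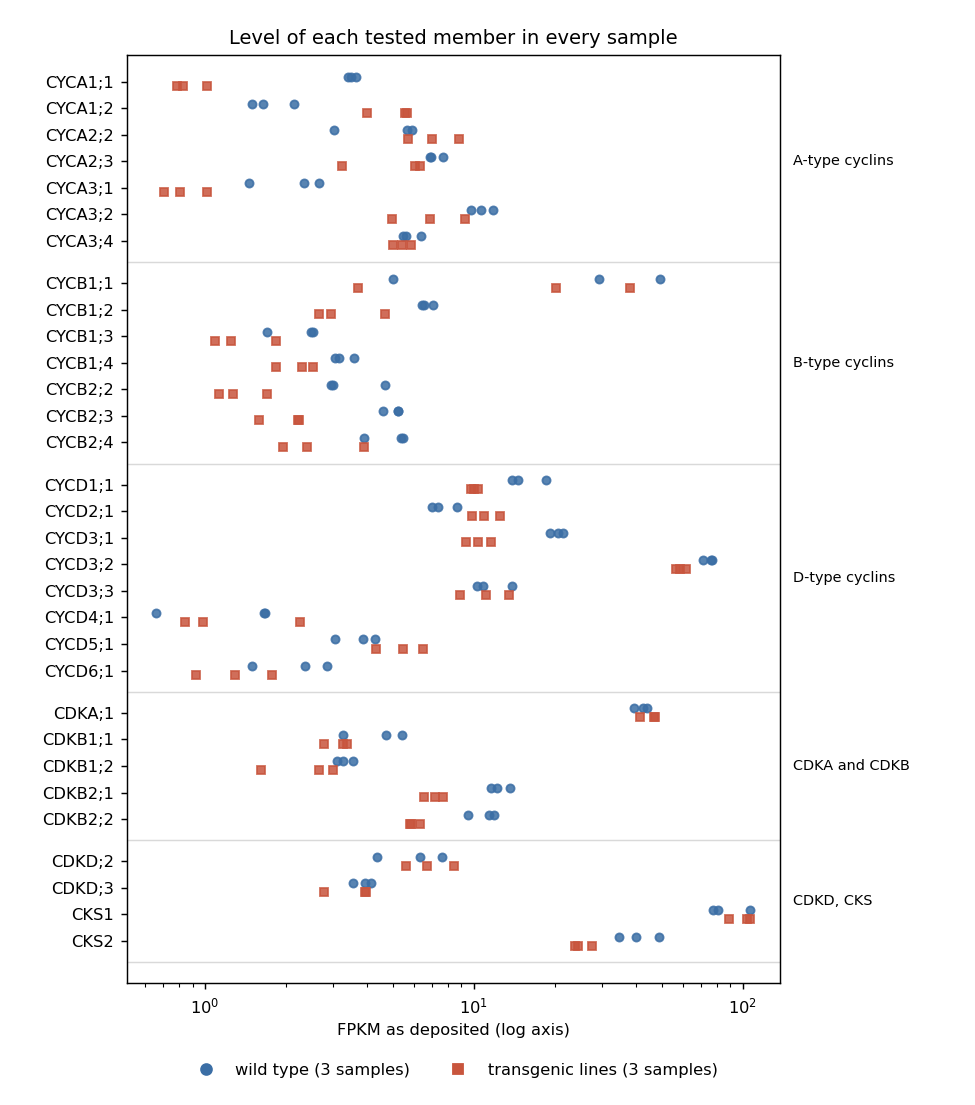
FPKM as deposited (log axis) of the 31 tested members in each of the 3 wild-type samples (blue circles) and 3 transgenic lines (red squares). CYCB1;1 spreads over 4.99 to 49.4 FPKM in wild type and 3.71 to 38.1 FPKM in the lines, while both CDKB2 genes separate the groups.

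The kinases differed by type. CDKA, the CDK used throughout the cycle, was at 39.4, 42.5 and 44.0 FPKM in wild type against 47.0, 41.6 and 47.1 FPKM in the lines, and was not called (log2 fold change 0.11, 95% interval -0.065 to 0.28). Both CDKB2 genes, transcribed around mitosis, fell. CDKB2;1 was at 12.2, 13.6 and 11.6 FPKM in wild type against 7.17, 6.52 and 7.71 FPKM in the lines (log2 fold change -0.73, SE 0.110, adjusted p = 0.000641). CDKB2;2 was at 9.50, 11.4 and 11.9 FPKM in wild type against 5.79, 6.29 and 5.84 FPKM in the lines (log2 fold change -0.77, SE 0.117, adjusted p = 0.000651). For both, every line lay below every wild-type sample, and the 3 lines were close together. The gene of CDKB2;2 overlaps AT1G20925 on the other strand, at 14.6 ± 0.739 FPKM in wild type and 11.4 ± 0.492 FPKM in the lines. This neighbour was also called lower (log2 fold change -0.33, limma adjusted p = 0.0169). Whether its reads enter the values of CDKB2;2 was not tested. The CDKB1 genes were lower in the mean but were not called as deposited. Both were called lower after TPM (limma adjusted p = 0.0102 for CDKB1;1 and 0.0163 for CDKB1;2), where 48.9% of all genes were. Without wild-type replicate 2, CDKB1;1 was called lower as well (0.0361). CDKB1;1 ran from 3.26 to 5.40 FPKM in wild type and from 2.77 to 3.38 FPKM in the lines (log2 fold change -0.38, 95% interval -0.79 to 0.025), and CDKB1;2 from 3.10 to 3.56 FPKM and 1.61 to 3.00 FPKM in the same order (log2 fold change -0.35, 95% interval -0.79 to 0.078). Whether CDKB2 fell more than CDKB1 was not tested. The ratio of summed CDKB2 to summed CDKB1 was 3.06 ± 0.584 in wild type and 2.38 ± 0.252 in the lines (SD, n = 3), with overlapping groups.

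Of the CDK-activating kinases, CDKD;2 ran from 4.38 to 7.62 FPKM in wild type and from 5.596 to 8.44 FPKM in the lines, and CDKD;3 from 3.55 to 4.13 FPKM and 2.78 to 3.98 FPKM in the same order. Neither was called, with log2 fold changes of 0.17 (95% interval -0.28 to 0.61) and -0.10 (-0.46 to 0.26). CDKD;1 was at 0.509 to 1.202 FPKM over the 6 samples. WEE1, which inhibits CDKs by phosphorylation when DNA replication is disturbed, was at 0.661 to 0.873 FPKM in wild type and 0.339 to 0.675 FPKM in the lines. Both were below the level for testing, and in both the groups overlapped.

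The docking subunits CKS1 and CKS2, which lie next to each other on chromosome 2 with 348 bases between them, parted ways. CKS2 (11912151 to 11913425) was at 40.0, 34.8 and 48.8 FPKM in wild type against 23.7, 27.6 and 24.4 FPKM in the lines, a log2 fold change of -0.67 (SE 0.119, adjusted p = 0.00166), without overlap. CKS1 (11910569 to 11911802) was at 81.0, 77.9 and 106.8 FPKM in wild type against 88.9, 104.1 and 106.1 FPKM in the lines (log2 fold change 0.18, 95% interval -0.089 to 0.45). Its groups overlapped and it was not called, although it passed as higher without wild-type replicate 3 (adjusted p = 0.0206). The ratio of CKS1 to CKS2 within a sample was 2.02, 2.24 and 2.19 in wild type and 3.75, 3.77 and 4.35 in the lines. Wild-type replicate 3 was highest in its group for both genes, and the ratio of that sample lay between those of the other replicates. The exons of the pair share no window of 50 bases. CKS2 also overlaps AT2G27980 on the same strand, which ran from 5.78 to 8.02 FPKM over the 6 samples and was not called.

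Since the totals of the groups differ, members were also set against CDKA of the same sample, a ratio from which any factor common to a sample drops out. The summed CDKB level was 0.769, 0.749 and 0.710 times that of CDKA in wild type and 0.391, 0.425 and 0.423 times in the lines. CDKB2;1 went from 0.297 ± 0.0303 to 0.158 ± 0.00555 and CDKB2;2 from 0.260 ± 0.0164 to 0.133 ± 0.0160 (SD, n = 3). On this measure CDKB1;2 did not overlap either, with ratios of 0.0705 to 0.0837 in wild type against 0.0387 to 0.0636 in the lines, while the other CDKB1 gene did. The summed G2-to-mitosis cyclins overlapped between the groups with CYCB1;1 included (1.098 to 2.40 in wild type, 0.934 to 1.49 in the lines). They did not overlap without it (0.985 to 1.16 in wild type, 0.653 to 0.845 in the lines). The summed CYCA3 cyclins ran from 0.399 to 0.526 in wild type and from 0.246 to 0.361 in the lines, and the summed D-type cyclins from 2.97 to 3.64 and 2.17 to 2.65 in the same order. CKS2 ran from 0.818 to 1.11 in wild type and from 0.505 to 0.663 in the lines, and CKS1 overlapped. These ratios show unequal change within a sample and do not say that CDKA itself was the same. They carry no test because the genes were chosen with results known.

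**Figure D3:**
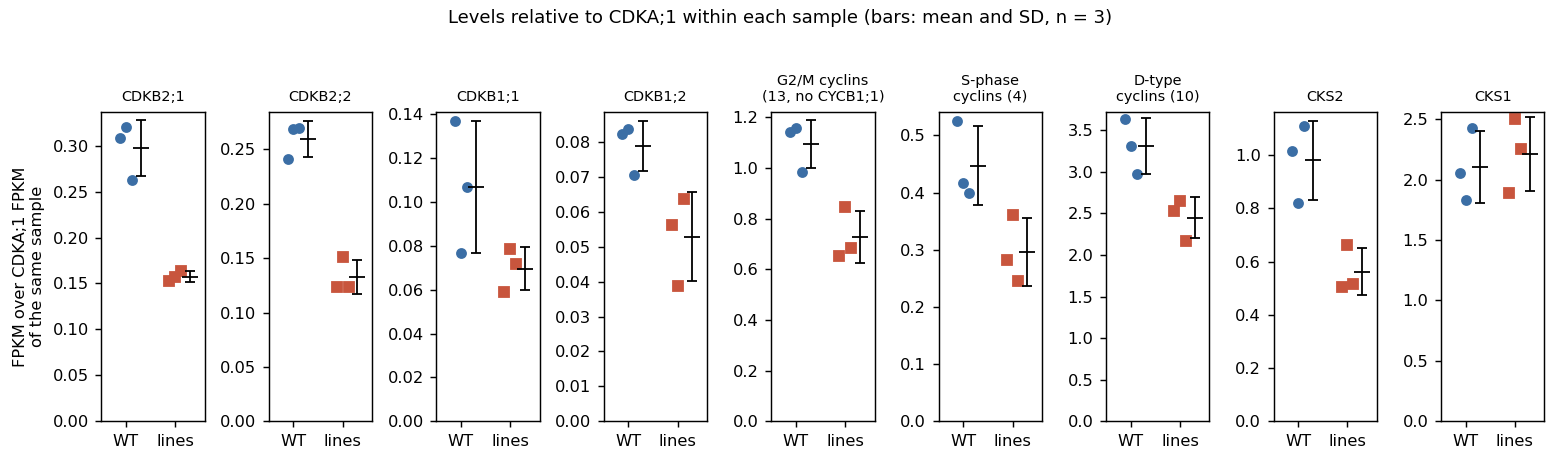
FPKM of single genes or summed groups divided by CDKA FPKM of the same sample, in 3 wild-type samples (blue circles) and 3 transgenic lines (red squares), with mean and SD, each panel on its own axis from 0. The CDKB2 genes lie at 0.241 to 0.320 in wild type, above 0.123 to 0.164 in the lines, and CKS1 overlaps between the groups.

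Fold changes were then read against the MSA core matches shown above. Of the 9 tested members with at least 2 matches, 5 were lower, 1 was higher (TAM) and 3 were not called, with a median log2 fold change of -0.75. The 18 tested members with 0 matches had 5 lower, 1 higher and 12 not called, with a median of -0.22. Of the 4 tested members with 1 match, 3 fell and 1 was not called. Over the whole table, as deposited, at least 2 matches were present in 4.98% of the genes called lower, 5.28% of those called higher and 5.91% of those not called. The order of the first 2 shares turned after quantile normalization (5.38% lower, 5.09% higher) and after TPM (5.62% lower, 4.89% higher). No test was made of either comparison.

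**Figure D4:**
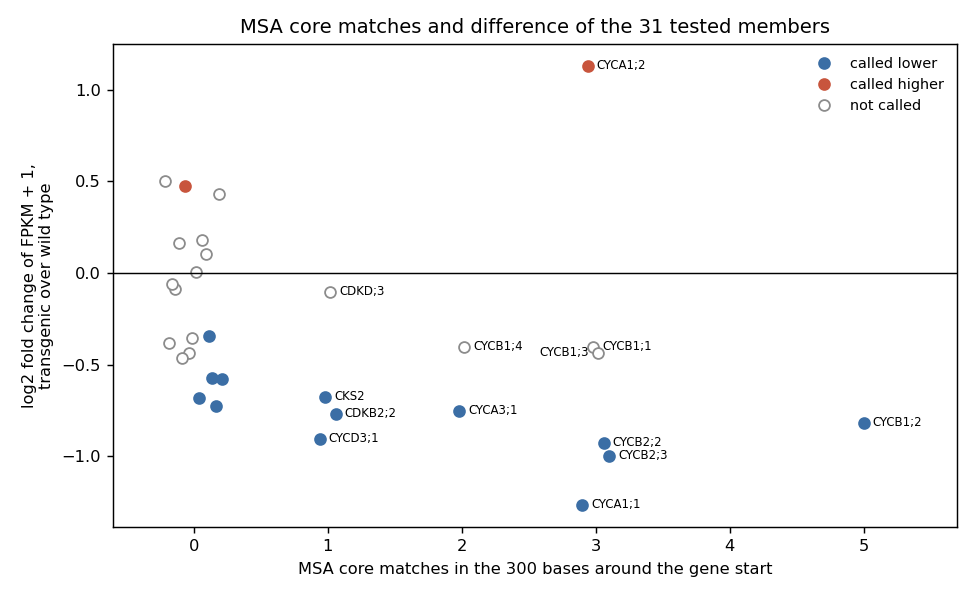
Log2 fold change of FPKM + 1 of the 31 tested members against the number of MSA core matches (either strand) from 250 bases before to 50 bases after the gene start, with points at each number set side by side and filled where the adjusted p was under 0.05. With 3 or more matches, CYCA1;2 (TAM) is the only gene above 0.

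Other genes of the same machinery were read from lists chosen together with the members. CDK inhibitors were called lower in 6 of 11 tested genes and higher in 1, with a median log2 fold change of -0.50. As above, 15.7% of all tested genes were lower and 25% higher, and each list is to be read beside those shares. KRP2 fell from 6.55 ± 0.232 to 1.598 ± 0.232 FPKM, KRP4 from 15.3 ± 2.09 to 5.90 ± 0.462 FPKM and LGO, a SIAMESE-related inhibitor, from 45.4 ± 2.37 to 18.3 ± 4.46 FPKM (SD, n = 3), with limma adjusted p from 2.64e-05 to 0.000158. Some genes that restrain these kinases were thus called lower beside several of the kinases and cyclins, and 4 were not called. Of the 6 lower, SIM and SMR2 lost their calls in at least 1 alternative. KRP6, the 1 called higher, went from 17.8 ± 2.16 to 24.6 ± 2.44 FPKM (SD, n = 3, limma adjusted p = 0.00980) and lost its call after TPM (0.504). Activators of the anaphase-promoting complex, which marks mitotic cyclins for degradation, were lower in 3 of 5: CCS52B, whose log2 fold change was -0.73, CDC20.1 (-0.54) and CDC20.2 (-0.67). The other 2, CCS52A1 and CCS52A2, known to promote endocycles, were not called. Genes of late mitosis and cytokinesis were called lower in 4 of 6 as deposited and in 2 of 6 after quantile normalization or cyclic loess, where AUR1 and AUR2 lost their calls. Under those scalings, in that order, 20.2% and 19.8% of all genes were lower. Among the 4, KNOLLE, the cytokinesis syntaxin, fell from 16.9 ± 1.75 to 11.04 ± 0.381 FPKM, the Aurora kinase gene AUR3 fell from 4.87 ± 1.45 to 1.22 ± 0.707 FPKM, and AUR1 had a log2 fold change of -0.45 (adjusted p = 0.0352, up to 0.128 over the alternatives).

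The factors upstream of these genes were mostly not called with the values as deposited. Of 12 tested genes for RBR1, E2F, DP, DEL and MYB3R proteins, 1 fell and 0 rose with limma, and 6 were lower after TPM, where 48.9% of all genes were. The 1 called as deposited was MYB3R5, a repressor-type MYB3R, which went from 3.61 ± 0.623 to 1.89 ± 0.168 FPKM (SD, n = 3, log2 fold change -0.67, adjusted p = 0.0110). The next smallest p-values were those of DEL3 (log2 fold change -0.83, adjusted p = 0.0566) and MYB3R4 (-0.33, adjusted p = 0.190). Genes of DNA replication were called lower in 2 of 13 (15.4%), close to the 15.7% of all tested genes, and in 1 of 13 after quantile normalization, where 20.2% of all genes were. The 2 were PCNA2 (log2 fold change -0.38, adjusted p = 0.0213, up to 0.0659 over the alternatives) and MCM5 (-0.44, adjusted p = 0.0445, up to 0.157). CDT1B was not called (-0.64, adjusted p = 0.0754). Among 18 tested cyclin and CDK genes outside the set, 5 fell (27.8%) and 1 rose, with a median of -0.0074. The kinase gene CDKG;1 rose from 70.1 ± 5.52 to 123.5 ± 2.43 FPKM. The P-type cyclin gene CYCP3;2 was at 2.58, 1.93 and 4.18 FPKM in wild type and was listed at 0, 0 and 0.155 FPKM in lines 1 to 3, and CYCP4;1 fell from 6.11 ± 1.035 to 1.52 ± 0.630 FPKM. Flower markers were called in 0 of 4 tested genes with limma, summing to 8.33 to 9.19 FPKM in wild type and 3.80 to 8.34 FPKM in the lines, and WOX5, the root marker in the table, was at 0.469 to 1.31 FPKM.

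The number of members called lower moved most under TPM, beyond its range of 10 to 12 when a sample was left out. Rescaling to TPM shifted the median of all genes to -0.31 and gave 22 members lower and 1 higher, where 48.9% and 11.2% of all genes were. After quantile normalization 11 members were lower and 3 higher (20.2% and 19.1% of all genes), and after cyclic loess 12 and 3 (19.8% and 19.35% of all genes). The member median was -0.30 after quantile normalization and -0.67 after TPM, in each case below the median of all genes under the same scaling (-0.0079 and -0.31). CDKA shows how far the scale reaches. Its log2 fold change was 0.11 as deposited, -0.069 after quantile normalization and -0.27 after TPM, where it was called lower (adjusted p = 0.0125). Of the 15 called members, 10 that were lower and TAM, which was higher, kept their call in every alternative in which they were tested, the left-out samples included. The 4 that lost it in at least 1 alternative were CYCA3;1, CYCA3;2, CYCB2;4 and CYCD2;1. Of the members not called as deposited, 11 gained a call in at least 1 alternative. CYCA2;3, CYCA3;4, CYCB1;3, CYCB1;4, CYCD3;3, CYCD6;1, CDKA and both CDKB1 genes were lower after TPM. CYCB1;4 was lower with no variance trend as well, and the calls gained by CYCD5;1 and CKS1 are given above.

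**Figure D5:**
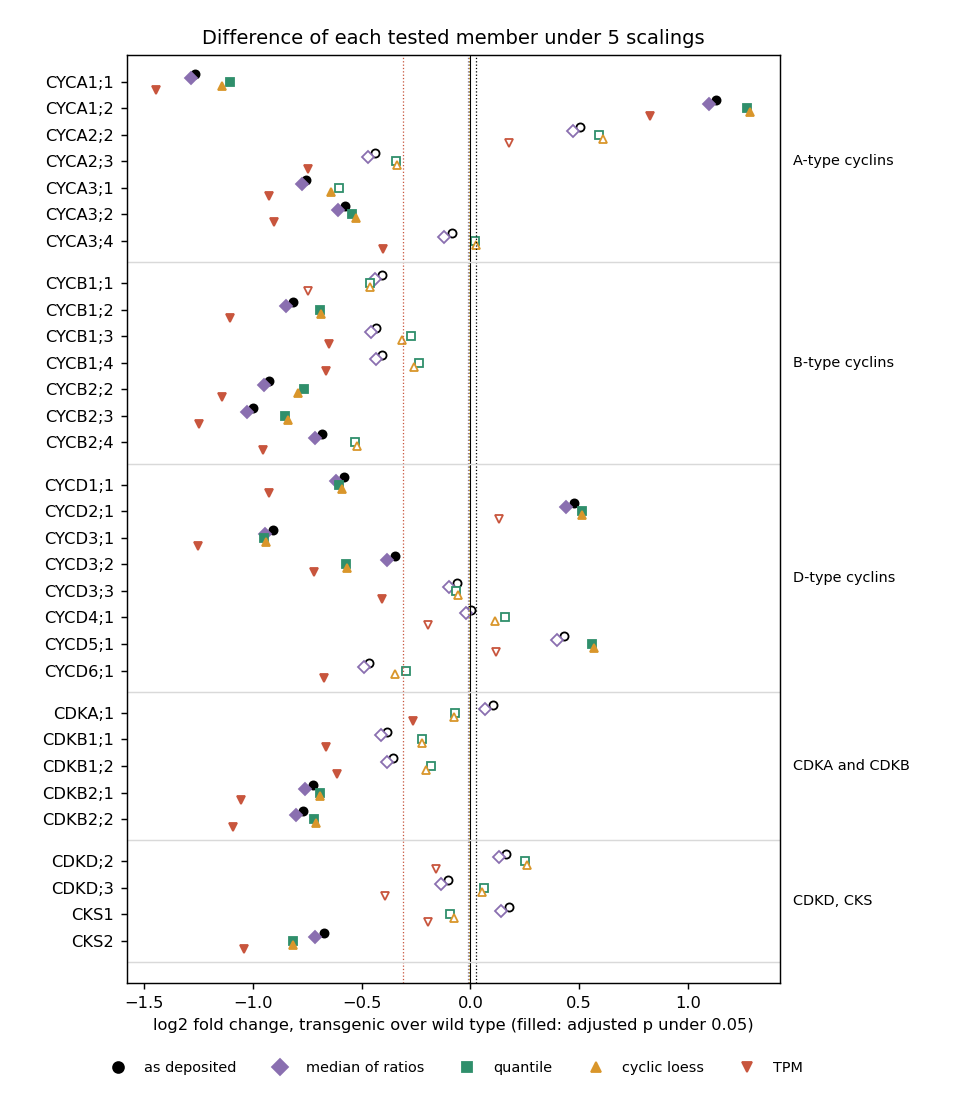
Log2 fold change of each tested member under 5 scalings (symbols), filled where the limma adjusted p was under 0.05, with dotted lines at the median of all tested genes under each scaling. TPM moves every member to the left, to 22 calls lower, and TAM (CYCA1;2) is called higher under all 5.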

How the data were processed

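RNA sequencing measured leaf mRNA in 3 wild-type and 3 transgenic samples. The authors deposited 1 table of FPKM. The submitters' processing notes name TopHat2, DESeq and TAIR10, without version or role. No quantifier, annotation, strand or fragment count is given in the sources used here, so depth is unknown and no counting interval is given. As deposited, FPKM were taken as log2(FPKM + 1) and fitted with limma 3.58.1 (R 4.3.3, mean-variance trend, no covariate) over the 17093 genes averaging 1 FPKM or more, and p-values were adjusted over all of them (Benjamini-Hochberg, threshold 0.05). Each fold change compares the lines with wild type after adding 1 FPKM, which makes changes of low genes look smaller. In limma each gene's variance is drawn toward a trend over all tested genes. SEs, intervals and p-values therefore differ from those of a gene's own values alone. The fit was tested on simulated data.

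Alternatives were other scalings (quantile, TPM, median of ratios, cyclic loess), pseudocounts of 0.1 and 0.5, no filter or a mean of at least 5 FPKM, no trend, the title number as a block, and leaving out each sample. Every member was to be named, and in the other lists the 3 tested genes with the smallest p. Members and lists were chosen with earlier results of these data known. The table gives locus IDs. Symbols are textbook names, found in RefSeq's TAIR10.1 annotation for 40 of 41 members (CDKD;3 is under another symbol) and 87 of 96 other genes. Coordinates and promoter sequences are from RefSeq's TAIR10.1. A planned description of protein motifs was not made. Of the members, 13 overlap an annotated neighbour, whose reads may enter their values where strand was not used.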

Additional observations from a re-analysis of the deposited data

How the results depend on the processing

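Of 482 single-member values under the 16 alternatives, 426 kept direction and call, 21 lost a call, 14 gained one and 21 changed sign, the last all in members not called as deposited. Rescaling to TPM gave 22 members lower and 1 higher, with 5 A-type cyclins, 5 D-type cyclins and 5 CDKA and CDKB genes lower and 0 D-type cyclins higher. Of all genes, 48.9% were lower and 11.2% higher under TPM. Requiring a mean of at least 5 FPKM, which tests fewer members, gave 8 lower and 1 higher, with 1 A-type and 1 B-type cyclin lower and 0 A-type cyclins higher. D-type cyclins higher numbered 2 after quantile normalization and 2 after cyclic loess, where 19.1% and 19.35% of all genes were higher. Leaving out 1 sample in turn gave 10 to 12 members lower, 1 to 3 higher (1 without wild-type replicate 2), 1 to 2 A-type cyclins lower, 0 to 2 D-type cyclins higher and 0 to 1 gene of the CDKD, CKS and WEE1 group higher. Shares of all genes are not given here for the 5 FPKM filter or the left-out samples.

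Sign changed for CYCA3;4 after quantile normalization (0.021) and cyclic loess (0.024), and for CDKA and CKS1 after quantile normalization (-0.069 and -0.092), TPM (-0.27 and -0.20) and cyclic loess (-0.073 and -0.075). CDKD;3 turned after quantile normalization (0.062) and cyclic loess (0.055), CDKD;2 after TPM (-0.16), and CYCD4;1 after TPM (-0.19) and median of ratios (-0.019). Leaving out 1 sample in turn gave -1.31 to 0.47 for CYCB1;1, -0.20 to 0.081 for CYCD3;3, -0.25 to 0.16 for CYCD4;1, -0.022 to 0.32 for CDKD;2 and -0.17 to 0.026 for CDKD;3. The cause was not tested.

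Wild-type replicates and lines share numbers in the titles, with no statement that these pair samples. Deviations of same-numbered samples correlated across genes at -0.035, 0.049 and -0.024, so the numbers were not taken as pairs. With the title number as a replicate block, 13 members were lower and 2 higher, and no member's call changed. With no read counts, the precision of low members rests on 3 values a group and on the variance trend over all tested genes.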
